A study of Mus musculus with 12 samples.

Results

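The ADAM, ADAMTS, matrix metalloproteinase (MMP) and tissue inhibitor of metalloproteinase (TIMP) families were followed in mouse granulosa cells around an ovulatory stimulus. Members were all genes of the array whose symbol starts with Adam, Adamts, Adamtsl, Mmp or Timp followed by the number of a family member, and 70 of the 18194 genes tested met this rule. Where a gene had several probe sets, the one brightest on average over all arrays stood for it. The 70 members fall into 7 ADAMTS proteases that cut proteoglycans, 8 other ADAMTS proteases, 5 ADAMTS-like genes, 9 proteolytic ADAM genes of somatic cells, 3 ADAM genes of neurons and glia without protease activity, 16 ADAM genes of the reproductive tract, 13 secreted MMP genes, 5 membrane MMP genes and 4 TIMP genes.

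RNA of granulosa cells, the follicle cells that surround the oocyte, was hybridised to 12 Affymetrix mouse arrays, 3 in each of 4 groups, and every array carried cells pooled from 5 mice. The mice were wild type (WT) littermates or mice of the Snf2l Ex6DEL line, which lack exon 6 of Snf2l, also named Smarca1, which encodes an ISWI-type chromatin remodelling ATPase. All females received 5 IU of pregnant mares' serum gonadotropin (PMSG), which drives follicle growth, at 24 to 26 days of age. The WT 0 h and Ex6DEL 0 h groups were collected 48 h after PMSG alone, and the WT 4 h and Ex6DEL 4 h groups were given 5 IU of human chorionic gonadotropin (hCG), which starts ovulation, 48 h after PMSG and were collected 4 h later. The Ex6DEL line was derived by crossing the ubiquitously active Gata-1 Cre line, on a CD-1 background, with 129Sv mice whose Snf2l exon 6 was flanked by loxP sites, and was then kept on 129SV without Cre, so the deletion is present in every tissue. Cells were pressed out of punctured single follicles with no further sorting. Separate pools of mice for the 3 arrays of a group are not stated in the labels, so p-values measure only the spread between arrays, which may be technical.

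ADAMTS proteases are secreted enzymes that cut proteoglycans such as versican or process procollagens, ADAM proteases sit in the plasma membrane and release growth factors and receptors from the cell surface, and MMPs degrade collagens and other matrix proteins. TIMPs bind and block MMPs, and some of them also block ADAM and ADAMTS proteases. At ovulation the surge of luteinizing hormone, which hCG stands in for, makes the cumulus matrix expand and the follicle wall break down, and Adamts1 is the family member best known for a role there.

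Values are log2 intensities, on which a difference of 1 is a 2-fold change, and they cannot be compared between different probe sets. Changes were tested with limma in a single fit of all 12 arrays, and p-values were adjusted by Benjamini-Hochberg over all 18194 genes, with a call at an adjusted p under 0.05. The error given with a log2 change is its standard error (SE) in the fit, with 3 arrays per group. The bulk measurement cannot tell fewer cells of a type from less RNA per cell.

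The 10 measured granulosa markers averaged 11.60 to 14.28 per array, and only Amh was flat, so the labelled cells were present. Cyp19a1 and Lhcgr, also on the list of 12, were not measured. After hCG 4 of the 10 fell (Fshr, Inhbb, Hsd17b1 and Amhr2), where 6.62% of all genes fell. Other cell types gave signal too: 0 of 11 measured theca and stroma markers and 2 of 12 oocyte markers were flat. The purity of the samples is therefore not shown. A gene is called flat here when at least 9 of the 12 arrays lay within 0.1 of its own lowest value, so that a change carried by most arrays is absent there. A rise on a few arrays can still occur. Whether the lowest value of such a gene is background was not tested. Smarca1 itself lay between 10.31 and 11.10 in WT and between 10.61 and 10.96 in Ex6DEL cells at 0 h, and between 10.80 and 12.32 in WT and between 10.72 and 12.19 in Ex6DEL cells at 4 h; whether its probe set covers the deleted exon is not known here, so the genotype labels are not checked by them. Both Ex6DEL 0 h replicate 1 and Ex6DEL 0 h replicate 3 stood apart from the rest of their group. In replicate 1 the 11 measured markers of theca and stroma, the cells outside the granulosa layer, averaged 11.54, against 7.34 to 8.96 on the other 11 arrays. In replicate 3 the 19 measured transcription factors of the ovulatory response averaged 11.18, against 7.77 and 7.93 on the other arrays of its group, 7.16 to 8.95 on the WT 0 h arrays and 9.50 to 10.51 on the 4 h arrays.

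Of the 70 members, 36 (51.4%) were flat, against 36.2% of all genes. The largest shares were 12 of the 16 reproductive tract ADAM genes, among them Adam1a, Adam1b, Adam7 and Adam32, and 11 of the 13 secreted MMP genes, among them the collagenases Mmp8 and Mmp13, the stromelysins Mmp3 and Mmp10, the gelatinase Mmp9 and the ovulation-associated Mmp19. The others were 3 of 8 other ADAMTS, 2 of 7 proteoglycan-cleaving ADAMTS, 2 of 5 ADAMTS-like, 3 of 9 proteolytic ADAM, 2 of 3 ADAM genes of neurons and glia and 1 of 5 membrane MMP genes. All 4 TIMP genes, 4 of 5 membrane MMP genes, 6 of 9 proteolytic ADAM genes and 5 of 7 proteoglycan-cleaving ADAMTS genes were not flat. Adam15, a membrane protease of many epithelia, was represented by a probe set that stayed between 6.36 and 6.37 on all 12 arrays, and the 3 other Adam15 probe sets were flat too, so this gene gave no information on change.

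Averaged over both genotypes, 6 of the 70 members (8.57%) were called after hCG, against 9.72% of all genes. The 4 that rose were Adamts4, Adamts9, Timp1 and Adam8, where 3.1% of all genes rose, and the 2 that fell were Adamts5 and Mmp11, where 6.62% of all genes fell. Among the 34 members that were not flat the 6 calls make 17.6%, against 15.2% of all genes that were not flat. The share called among the members was thus close to the share among all genes, with more rises than falls among the members (4 and 2) and fewer among all genes (564 and 1204). The median change was 0.00 over the 70 members and -0.01 over all genes, where flat genes hold it near 0. Without the flat genes it was -0.22 over the 34 members and -0.16 over all genes. Leaving out single arrays gave between 3 and 9 called members, while the count over all genes ran from 895 to 2217, and 3 members were called without WT 0 h replicate 2, WT 0 h replicate 3 or Ex6DEL 4 h replicate 3. The 6 arrays of 4 h lay above all 6 arrays of 0 h for 4 members (Adamts4, Adamts9, Timp1 and Adamts3), where 2.48% of all genes did so, and below them for 1 member (Adamts5), where 5.18% of all genes did so.

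**Figure D1:**
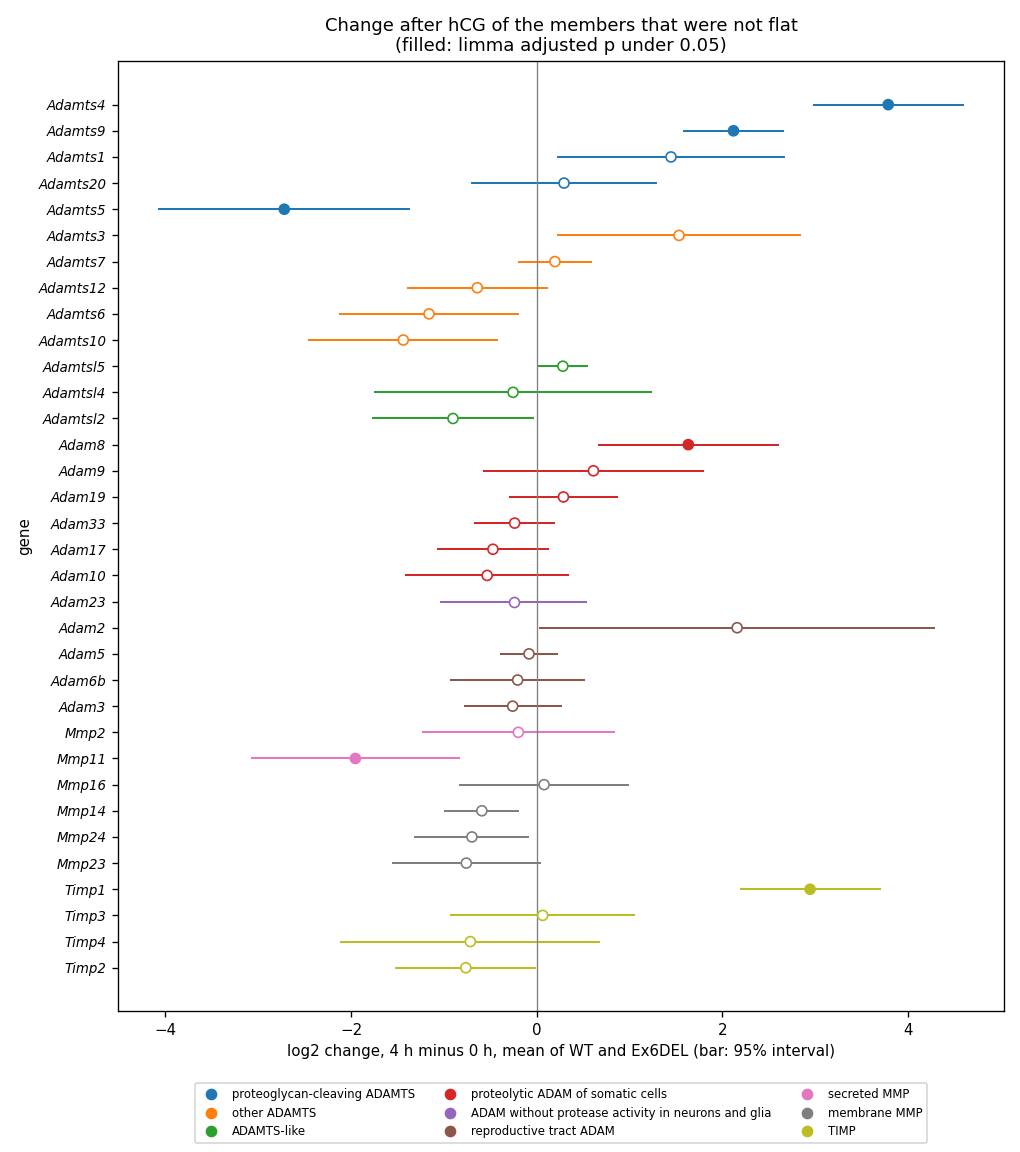
Change after hCG of the 34 members that were not flat, as the log2 difference of 4 h minus 0 h averaged over WT and Ex6DEL (horizontal axis), with 95% intervals as bars, by gene (vertical axis) and class (colour); filled points were called at an adjusted p under 0.05. Adamts4 lies farthest to the right at 3.79 and Adamts5 farthest to the left at -2.72, both in the proteoglycan-cleaving class.

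The promoters of the members that the results turn on are shown here because the members moved within the same 4 h. RefSeq's table of GRCm38.p6 promoters, each from 250 bases before to 50 bases after a gene's start, matched 41 of the 70 members by gene ID, some with more than 1 start. Printed are those of the called members that the table holds (Adamts9, Timp1, Adam8 and Mmp11) and that of Adamts1, a choice made with the values known. The table also holds other members described below, among them Mmp14, Mmp23, Adam10, Adam17, Adamts3, Timp2, Timp3 and Timp4. Capitals mark matches, on either strand, to the cAMP response element core TGACG, the C/EBP site TTGCNNAA, the steroid receptor half-site TGTTCT and the GC box GGGCGG, with the reverse complement in capitals for a match on the other strand. The AP-1 site TGANTCA, the full cAMP response element TGACGTCA, which contains the core, and the RUNX core TGTGGT were searched as well.
Adamts9, chr6:92943485-92943784 (minus strand): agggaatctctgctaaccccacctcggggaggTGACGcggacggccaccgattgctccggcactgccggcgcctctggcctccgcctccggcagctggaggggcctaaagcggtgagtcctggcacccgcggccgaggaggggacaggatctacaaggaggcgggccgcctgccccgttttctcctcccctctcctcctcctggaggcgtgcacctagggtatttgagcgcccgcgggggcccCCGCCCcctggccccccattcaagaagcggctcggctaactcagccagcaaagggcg
Timp1, chrX:20869916-20870215 (plus strand): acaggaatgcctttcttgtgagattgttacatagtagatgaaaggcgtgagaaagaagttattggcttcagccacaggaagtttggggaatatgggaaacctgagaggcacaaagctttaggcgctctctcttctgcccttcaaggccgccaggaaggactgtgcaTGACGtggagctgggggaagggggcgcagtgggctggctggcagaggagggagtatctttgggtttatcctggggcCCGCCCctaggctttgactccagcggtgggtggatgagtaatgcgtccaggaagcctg
Adamts1, chr16:85803064-85803363 (minus strand): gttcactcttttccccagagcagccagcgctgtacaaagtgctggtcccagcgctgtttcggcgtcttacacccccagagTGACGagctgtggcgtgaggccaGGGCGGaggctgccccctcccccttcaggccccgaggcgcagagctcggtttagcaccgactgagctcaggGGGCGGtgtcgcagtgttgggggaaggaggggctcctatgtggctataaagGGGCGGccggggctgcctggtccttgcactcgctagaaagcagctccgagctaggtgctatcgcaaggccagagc
Adam8, chr7:139992513-139992812 (minus strand): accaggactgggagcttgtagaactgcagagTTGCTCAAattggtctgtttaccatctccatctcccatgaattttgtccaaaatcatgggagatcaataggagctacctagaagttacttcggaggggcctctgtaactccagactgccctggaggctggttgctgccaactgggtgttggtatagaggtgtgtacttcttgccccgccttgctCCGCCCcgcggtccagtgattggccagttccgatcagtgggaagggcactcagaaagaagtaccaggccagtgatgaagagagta
Mmp11, chr10:75932453-75932752 (minus strand): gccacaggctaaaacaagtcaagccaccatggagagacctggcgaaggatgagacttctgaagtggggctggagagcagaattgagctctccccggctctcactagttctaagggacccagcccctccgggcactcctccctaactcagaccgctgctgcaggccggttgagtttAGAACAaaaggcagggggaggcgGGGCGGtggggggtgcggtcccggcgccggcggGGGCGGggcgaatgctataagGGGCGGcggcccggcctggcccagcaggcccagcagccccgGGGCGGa

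The cAMP response element core stood at -218 from the start in Adamts9, at -84 in Timp1 and at -170 in Adamts1, and it was in 20.9% of 32544 RefSeq promoters of this length and in 7 of 46 promoters of members. The GC box was in each of the 5 windows, in 35.9% of all promoters and in 21 of the 46. Adam8 had 1 C/EBP site match, found in 10.8% of all promoters, and Mmp11 had 1 steroid receptor half-site match, found in 18.9%. The AP-1 letters were in none of these 5 windows but in 11 of the 46 promoters of members (23.9%), against 7.79% of all promoters. Those 11 belong to Mmp1a, Mmp1b, Mmp3, Mmp7, Mmp10, Mmp12, Mmp13 and Mmp20, which lie close together on chromosome 9, and to Adam19, Adam1b and Adam25. Of these genes only Adam19 was not flat. The full cAMP response element (0 of 46, against 1.8%) and the RUNX core (10 of 46, against 16.7%) were not in the 5 windows either. Among the members not printed, Adamts3 had the cAMP response element core at -225 and Adam10 at -67, and Mmp14 had the RUNX core at -114. These matches are descriptions of letters in a window and not of bound sites.

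Of the 5 proteoglycan-cleaving ADAMTS genes that were not flat, 3 were called, and they went in opposite directions: Adamts4 and Adamts9 rose and Adamts5 fell. Adamts4, an aggrecanase that also cuts versican, read 5.79, 5.28 and 6.01 on the WT 0 h arrays (replicates 1 to 3) and 9.01, 9.80 and 9.32 on the WT 4 h arrays. Ex6DEL cells gave 4.41, 4.53 and 6.47 at 0 h and 8.96, 9.05 and 9.09 at 4 h. Every 4 h array lay above every 0 h array, and the highest of the 0 h arrays was Ex6DEL 0 h replicate 3. The change was 3.79 (SE 0.356), a 13.8-fold rise with an adjusted p of 0.00226 by limma. WT cells alone gave 3.68 (adjusted p = 0.0213), and Ex6DEL cells alone gave 3.90 (adjusted p = 0.024). In the mean of genotypes its second probe set rose by 2.30 with an adjusted p of 0.038 by limma among all probe sets. That probe set was not called in WT alone (adjusted p = 0.236) or in Ex6DEL alone (adjusted p = 0.187).

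Adamts9, which cuts versican and aggrecan, read 8.47, 8.66 and 7.74 in WT cells at 0 h and 10.86, 10.51 and 10.41 at 4 h. In Ex6DEL cells its values were 9.55, 8.38 and 8.83 at 0 h and 11.20, 10.57 and 10.81 at 4 h. The 0 h and 4 h arrays did not overlap, and Ex6DEL 0 h replicate 1 was the highest of the 0 h arrays. The rise was 2.12 (SE 0.238), or 4.35-fold, with an adjusted p of 0.00336 by limma, with 2.30 in WT cells alone (adjusted p = 0.0283) and 1.94 in Ex6DEL cells alone (adjusted p = 0.0344). The size depended on the probe set: the other 2 probe sets of Adamts9 changed by 5.86 (adjusted p = 0.011) and 0.81 (adjusted p = 0.0108), so the direction was shared and the size was not. By limma neither was called in WT alone (adjusted p = 0.0844 and 0.181), and only the latter in Ex6DEL alone (0.0899 and 0.0482).

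Adamts5, the other major aggrecanase, read 9.19, 8.85 and 8.89 in WT cells at 0 h and 7.02, 6.35 and 7.39 at 4 h. The Ex6DEL arrays read 11.81, 8.53 and 8.32 at 0 h and 6.96, 5.80 and 5.75 at 4 h. All 4 h arrays lay below all 0 h arrays, and Ex6DEL 0 h replicate 1 exceeded every other array by more than 2 on the log2 scale. The change was -2.72 (SE 0.596), a 6.58-fold fall with an adjusted p of 0.0268 by limma, and without Ex6DEL 0 h replicate 1 it was -2.16 (adjusted p = 0.00813). Neither genotype was called by itself, with -2.06 for WT cells (adjusted p = 0.314) and -3.38 for Ex6DEL cells (adjusted p = 0.0759), although WT was called without Ex6DEL 0 h replicate 1 (adjusted p = 0.0423) and Ex6DEL without Ex6DEL 0 h replicate 3 (adjusted p = 0.0393). The mean change passed in 6 of 12 fits that left out 1 array, and its adjusted p was 0.053 to 0.0681 without WT 0 h replicate 2 or 3, WT 4 h replicate 1 or 2, or Ex6DEL 4 h replicate 2 or 3. Another 2 Adamts5 probe sets fell by 2.27 (adjusted p = 0.0298) and by 1.72 (adjusted p = 0.0128), and the last was flat.

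Adamts1, the versican-cutting protease of cumulus expansion, was not called. It read 10.02, 9.55 and 9.42 in WT cells at 0 h and 12.29, 11.87 and 10.80 at 4 h, with no overlap. In Ex6DEL cells it read 9.77, 9.40 and 12.50 at 0 h and 11.77, 11.01 and 11.61 at 4 h, so the groups overlapped only through Ex6DEL 0 h replicate 3, the highest of all 12 arrays. The change was 1.45 (SE 0.537, adjusted p = 0.14 by limma). Without Ex6DEL 0 h replicate 3, in which the ovulatory transcription factors were raised too, it was 1.94 with an adjusted p of 0.00814, and 1.88 in Ex6DEL alone with an adjusted p of 0.0463; over all alternatives the adjusted p of the mean change ran from 0.00814 to 0.275. Whether the raised ovulatory genes on that array share a cause with its Adamts1 value was not tested.

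**Figure D2:**
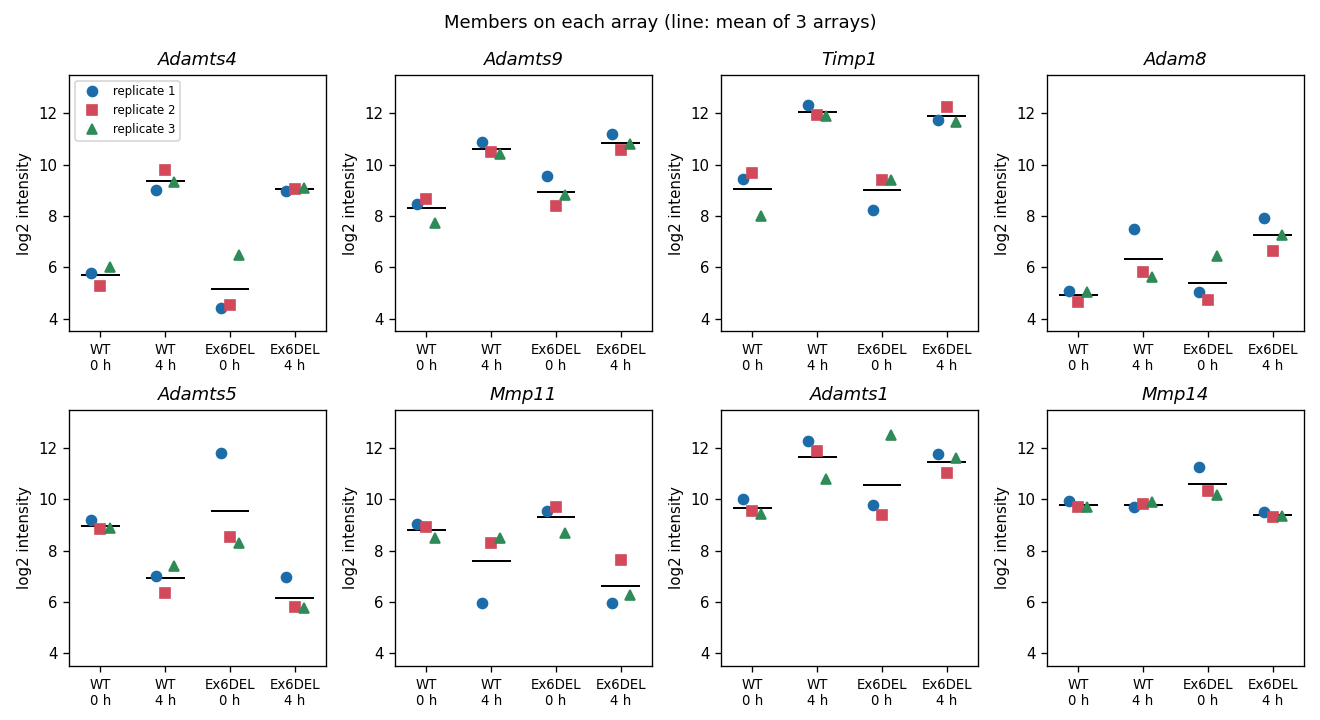
Log2 intensity (vertical axis) of the 6 called members and of Adamts1 and Mmp14 on each array by group (horizontal axis); symbols mark the replicate number and lines the mean of 3 arrays. Adamts4, Adamts9 and Timp1 have 4 h arrays wholly above their 0 h arrays, Adamts5 wholly below, and the Ex6DEL 0 h arrays hold the single high values of Adamts5 (11.81) and Adamts1 (12.50).

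Adamts8 and Adamts15 were flat, and Adamts20 lay between 2.21 and 4.65. None of the 8 other ADAMTS genes was called. Adamts3, a procollagen N-propeptidase, lay between 2.38 and 2.39 on all 6 arrays of 0 h. At 4 h it read 5.72, 2.41 and 4.76 in WT and 4.79, 2.40 and 3.44 in Ex6DEL cells. Replicates 1 and 3 of both genotypes were raised and replicate 2 of both stayed at the level of 0 h, so the lack of overlap rested on hundredths of a unit in replicate 2, and the change of 1.53 had an adjusted p of 0.147. Without WT 4 h replicate 2 it was 2.01 with an adjusted p of 0.0373, and over all alternatives the adjusted p ran from 0.0373 to 0.35. Adamts10, which binds fibrillin microfibrils, read 8.12, 8.69 and 8.95 in WT cells at 0 h and 7.36, 8.68 and 8.40 at 4 h, and in Ex6DEL cells 10.84, 9.86 and 8.41 at 0 h and 6.49, 7.58 and 7.73 at 4 h. Its arrays did not overlap in Ex6DEL cells, with a change of -2.43 (adjusted p = 0.0866), and its mean change was -1.44 (adjusted p = 0.0837); it was singled out after its values were seen. The ADAMTS-like genes, which have no protease domain, changed by -0.90 to 0.28 with none called.

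Among the 9 proteolytic ADAM genes only Adam8 was called. Adam8, known from leukocytes, read 5.08, 4.63 and 5.04 in WT cells at 0 h and 7.50, 5.83 and 5.62 at 4 h. The Ex6DEL arrays read 5.05, 4.74 and 6.43 at 0 h and 7.94, 6.64 and 7.26 at 4 h. The groups did not overlap within a genotype, although Ex6DEL 0 h replicate 3 lay above 2 of the WT 4 h arrays, and replicate 1 was the highest at 4 h in both genotypes. The rise was 1.64 (SE 0.427), or 3.11-fold, with an adjusted p of 0.0471 by limma, and among the 12 fits that left out 1 array it passed only without WT 4 h replicate 3 (0.0492) or Ex6DEL 0 h replicate 3 (0.0221). Its adjusted p lay between 0.0111 and 0.11 over all alternatives. Of 12 leukocyte markers 11 were measured and their mean ranged from 4.04 to 4.51 in WT and from 4.17 to 4.49 in Ex6DEL cells at 0 h, and from 4.41 to 4.79 and from 4.24 to 4.78 at 4 h. Itgam, Cd3e and Cd79a were flat, while Ptprc, the pan-leukocyte marker CD45, read 5.49 and 6.42 on the replicate 1 arrays of 4 h, where Adam8 was highest, against 2.76 to 5.17 elsewhere. S100a8, a neutrophil gene, was also raised on these arrays (5.95 and 4.86), whereas S100a9 was raised only on the WT array (5.18, against 2.89 on the Ex6DEL array). The macrophage genes Lyz2 (5.97 and 6.81, in a range of 5.97 to 8.58) and Csf1r (8.75 and 9.16, in a range of 7.89 to 9.73) were not raised. Cd68 (3.15 and 3.07), Tyrobp (4.83 and 4.87) and Adgre1 (6.69 and 7.81) stayed within the range of the other arrays. The part of leukocytes in the Adam8 result was not tested.

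Adam10 and Adam17, the main sheddases of Notch receptors and of growth factors of the epidermal growth factor family, were not called. Adam10 read 10.23, 10.90 and 11.26 in WT cells at 0 h and 11.26, 10.57 and 10.40 at 4 h, and 12.79, 10.74 and 11.16 in Ex6DEL cells at 0 h and 11.18, 10.18 and 10.31 at 4 h. Adam17 read 10.08, 10.61 and 10.80 in WT cells at 0 h and 10.06, 10.54 and 10.65 at 4 h, and 12.12, 10.73 and 10.80 in Ex6DEL cells at 0 h and 10.06, 10.51 and 10.50 at 4 h. For both genes Ex6DEL 0 h replicate 1 was the highest array, and the WT groups overlapped. The change was -0.53 for Adam10 (95% interval -1.42 to 0.35) and -0.47 for Adam17 (-1.07 to 0.13). Other probe sets of both genes gave changes of the opposite sign, 0.9998 for Adam10 and 0.72 and 0.55 for Adam17. None of these was called (adjusted p = 0.613, 0.186 and 0.346 by limma). A further Adam10 probe set that was not flat changed by -0.26. Adam9, a widely expressed sheddase, read 9.16, 9.29 and 9.57 in WT cells at 0 h and 11.41, 9.50 and 9.43 at 4 h, and 11.07, 8.61 and 9.67 in Ex6DEL cells at 0 h and 11.16, 9.47 and 10.08 at 4 h. Its replicate 1 was the highest array in 3 of the 4 groups, and its change was 0.61 (adjusted p = 0.574).

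The reproductive tract ADAM genes, which mostly act in sperm, had 0 of 16 members called. Adam2, the beta subunit of the sperm protein fertilin, lay at 2.21 on all 6 arrays of 0 h. At 4 h it read 5.34, 2.54 and 2.21 in WT and 7.89, 2.21 and 6.04 in Ex6DEL cells. Only 3 of the 6 arrays of 4 h were clearly raised, and the change of 2.16 was not called (adjusted p = 0.21); it was singled out after its values were seen.

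**Figure D3:**
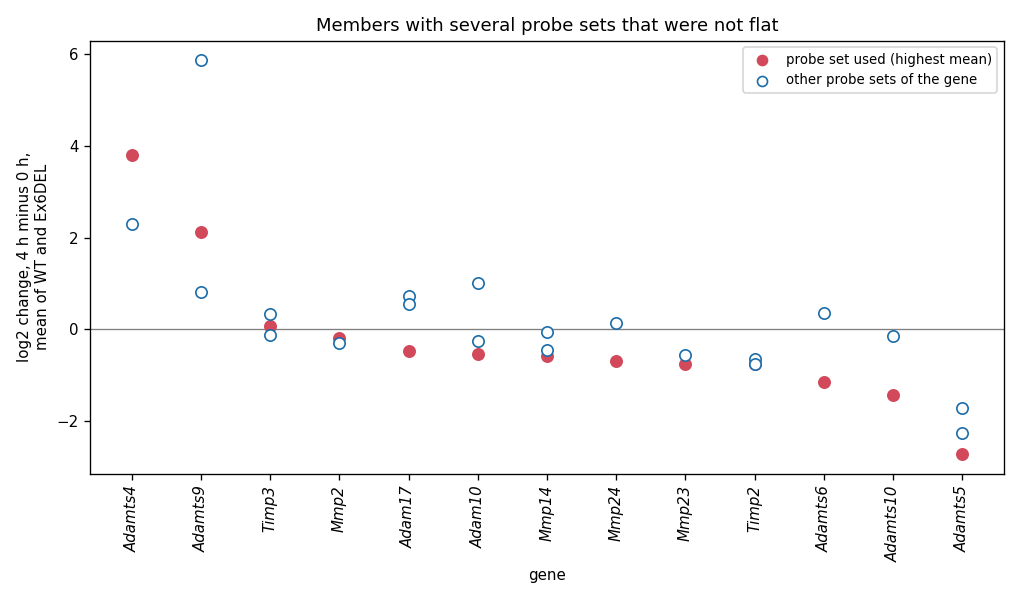
Change after hCG (vertical axis, log2 difference of 4 h minus 0 h averaged over genotypes) of every probe set that was not flat, for the 13 members (horizontal axis) with more than 1 such probe set; red points are the probe sets used. The probe sets of Adamts4, Adamts9 and Adamts5 share a sign within each gene, whereas 6 of 20 other probe sets, in Adam10, Adam17, Adamts6, Mmp24 and Timp3, have the opposite sign.

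Mmp11 was the only called member of the MMP family. Mmp11, or stromelysin-3, read 9.04, 8.91 and 8.48 in WT cells at 0 h and 5.96, 8.31 and 8.49 at 4 h. In Ex6DEL cells it read 9.54, 9.69 and 8.69 at 0 h and 5.96, 7.63 and 6.29 at 4 h. The Ex6DEL groups did not overlap, the WT groups did, and the replicate 1 arrays of 4 h were the lowest in both genotypes. The change was -1.95 (SE 0.494), a 3.87-fold fall with an adjusted p of 0.0424 by limma, and among the 12 fits that left out 1 array it passed only without WT 4 h replicate 1 or 3, Ex6DEL 0 h replicate 3 or Ex6DEL 4 h replicate 2. Over all alternatives its adjusted p ran from 0.0087 to 0.101.

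Mmp14, the membrane collagenase MT1-MMP that activates pro-MMP2, read 9.93, 9.70 and 9.71 in WT cells at 0 h and 9.69, 9.81 and 9.91 at 4 h. In Ex6DEL cells it read 11.28, 10.34 and 10.16 at 0 h and 9.52, 9.30 and 9.36 at 4 h. The WT groups overlapped almost fully, while the Ex6DEL arrays lay above all WT arrays at 0 h and below all WT arrays at 4 h. The change was 0.02 in WT (95% interval -0.55 to 0.59) and -1.20 in Ex6DEL (-1.77 to -0.63, adjusted p = 0.0502), and the Ex6DEL change was called without Ex6DEL 0 h replicate 1 (-0.86, adjusted p = 0.0346) or replicate 3 (-1.42, adjusted p = 0.0216). The difference between the responses of the genotypes was -1.22 (SE 0.355), with an unadjusted p of 0.00773 and an adjusted p of 0.871 by limma, so it did not pass. Without Ex6DEL 0 h replicate 1, which carried the raised theca and stroma markers, that difference was -0.88 (adjusted p = 0.518), and over all alternatives its adjusted p ran from 0.0475, in a fit added after the data were seen without both Ex6DEL 0 h replicates 1 and 3, to 1.

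Mmp23, a membrane MMP known from the ovary, read 9.01, 9.01 and 9.31 in WT cells at 0 h and 7.86, 9.67 and 8.92 at 4 h, and 10.52, 9.55 and 9.24 in Ex6DEL cells at 0 h and 7.93, 8.92 and 8.80 at 4 h. The WT groups overlapped and the Ex6DEL groups did not, and the change of -0.76 was not called (adjusted p = 0.245). Mmp2, gelatinase A, read 7.48, 6.82 and 6.48 in WT cells at 0 h and 7.33, 8.36 and 7.79 at 4 h, and 10.37, 8.21 and 8.06 in Ex6DEL cells at 0 h and 6.84, 8.27 and 7.65 at 4 h. Its Ex6DEL 0 h arrays lay above all WT 0 h arrays, and its change after hCG was -0.20 (adjusted p = 0.845).

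Of the 4 TIMP genes, Timp1 rose and the other members were not called. Timp1, the inhibitor known to be induced at ovulation, read 9.43, 9.68 and 8.001 in WT cells at 0 h and 12.33, 11.92 and 11.90 at 4 h. Ex6DEL cells gave 8.21, 9.39 and 9.41 at 0 h and 11.75, 12.23 and 11.68 at 4 h. All 4 h arrays lay well above all 0 h arrays, with WT 0 h replicate 2 the highest at 0 h and Ex6DEL 4 h replicate 3 the lowest at 4 h. The rise was 2.95 (SE 0.333), or 7.71-fold, with an adjusted p of 0.0034 by limma, with 3.01 in WT cells alone (adjusted p = 0.032) and 2.88 in Ex6DEL cells alone (adjusted p = 0.0323). In the mean of genotypes Adamts4, Adamts9 and Timp1 passed in each of the 12 fits that left out 1 array. In WT alone Adamts4 passed in 8, Adamts9 in 7 and Timp1 in 5 of these fits, and in Ex6DEL alone Adamts4 passed in 9, Adamts9 in 6 and Timp1 in 5. Fitting only the groups compared gave adjusted p-values of 0.0657 to 0.13 in WT and 0.153 to 0.185 in Ex6DEL for these 3 genes, and with the replicate number as a block the Ex6DEL change of Timp1 had an adjusted p of 0.0571. With this block the WT change of Timp1 was not called either.

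Timp2, which blocks MMP2 and takes part in its activation by MMP14, read 10.15, 10.60 and 10.23 in WT cells at 0 h and 9.83, 10.37 and 10.58 at 4 h, and 12.36, 10.69 and 10.56 in Ex6DEL cells at 0 h and 9.21, 10.12 and 9.90 at 4 h. Only the Ex6DEL groups were free of overlap, with Ex6DEL 0 h replicate 1 far above the rest, and the change was -0.76 (95% interval -1.52 to -0.0036, adjusted p = 0.215). Timp3, the matrix-bound inhibitor that also blocks ADAM17 and several ADAMTS proteases, read 9.65, 8.33 and 7.90 in WT cells at 0 h and 9.01, 8.31 and 8.53 at 4 h, and 9.81, 8.07 and 8.36 in Ex6DEL cells at 0 h and 8.78, 9.74 and 8.15 at 4 h. Its groups overlapped, and the change was 0.07 (95% interval -0.93 to 1.06). Timp4 read 5.81, 4.92 and 2.23 in WT cells at 0 h and 2.39, 2.75 and 2.43 at 4 h, and 2.39, 3.02 and 2.39 in Ex6DEL cells at 0 h and 2.23, 4.25 and 2.43 at 4 h. It was raised on scattered arrays of 3 groups, and the change was -0.71 (adjusted p = 0.577).

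Within each genotype, 3 members rose in WT cells (Adamts4, Adamts9 and Timp1), where 0.61% of all genes rose, and the same 3 rose in Ex6DEL cells, where 0.566% of all genes rose. These calls ended when only the groups compared were fitted, with 0 members called in WT and 0 in Ex6DEL. With the replicate number as a block, 2 were called in Ex6DEL, Adamts4 and Adamts9, and Timp1 was not (adjusted p = 0.0571). In WT too 2 were called with this block, and Timp1 was not. The WT count was 0 without WT 0 h replicate 2, WT 4 h replicate 1, WT 4 h replicate 2 or Ex6DEL 4 h replicate 3. The Ex6DEL count was 0 without Ex6DEL 0 h replicate 2 or Ex6DEL 4 h replicate 3, 1 without WT 0 h replicate 2, WT 4 h replicate 2, Ex6DEL 4 h replicate 1 or Ex6DEL 4 h replicate 2, and 8 without Ex6DEL 0 h replicate 3. Those 8 were Adamts1, Adamts4, Adamts9 and Timp1, which rose, and Adamts5, Adamts10, Mmp14 and Mmp24, which fell. The count over all 18194 genes in that fit was 1256. Over the fits that left out 1 array the count over all genes ran from 50 to 344 in WT and from 26 to 1256 in Ex6DEL. The 4 h arrays lay wholly above the 0 h arrays for 7 members in WT (7.52% of all genes) and for 5 in Ex6DEL cells (5.13% of all genes). They lay wholly below for 2 members in WT, Adamts5 and Adamts6 (11.4% of all genes), and for 11 in Ex6DEL cells (14.5% of all genes), among them Adamts5, Adamts10, Mmp11, Mmp14, Mmp23, Mmp24 and Timp2.

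**Figure D4:**
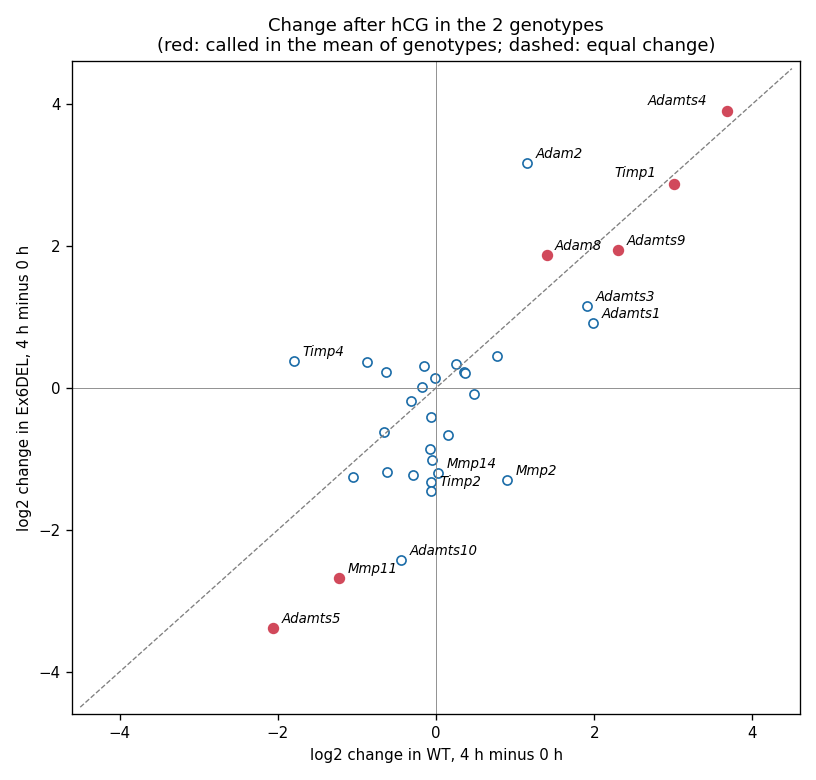
Log2 change after hCG in WT (horizontal axis) and in Ex6DEL cells (vertical axis) of the 34 members that were not flat, with the 6 called members in red and equal change on the dashed line. Each called member has the same sign in both genotypes, Adamts4 at 3.68 and 3.90 and Mmp11 at -1.23 and -2.68, while Mmp14 (0.02 and -1.20) and Mmp2 (0.90 and -1.29) lie below it and Adam2 (1.15 and 3.17) and Timp4 (-1.80 and 0.37) above it.

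No member differed between the genotypes by limma at 0 h, where 0.033% of all genes were called, at 4 h, where 0% were called, or in the response to hCG, where 0.011% were called. At an unadjusted p under 0.05, 3 members differed at 0 h (Mmp2, Mmp14 and Mmp24), 0 at 4 h, and the same 3 in the response. These are 4.29%, 0% and 4.29% of the members, against 5.36%, 1.62% and 3.2% of all genes. The Ex6DEL 0 h arrays lay wholly above the WT 0 h arrays for these 3 members (3.96% of all genes) and wholly below them for Adamts3, Adam19 and Adam6b (2.45% of all genes). Adamts3 was near its lowest level on all 6 arrays. For Adam6b the highest Ex6DEL array (3.408) and the lowest WT array (3.413) almost met. For both genes this order is thus one of ranks with hardly any gap between the groups. Whether these levels are background was not tested. The Ex6DEL 4 h arrays lay wholly below the WT 4 h arrays for Mmp14 (2.02% of all genes). Mmp2 was 1.95 higher in Ex6DEL than in WT cells at 0 h (95% interval 0.48 to 3.43, adjusted p = 0.874) and 1.21 higher without Ex6DEL 0 h replicate 1. Mmp24, a membrane MMP best known from neurons, was 0.93 higher at 0 h (95% interval 0.06 to 1.81, adjusted p = 0.874). Without Ex6DEL 0 h replicate 1 it was 0.64 higher. The second Mmp24 probe set that was not flat did not share this difference, with a mean of 4.31 for Ex6DEL against 4.39 for WT at 0 h. Its Ex6DEL change after hCG was 0.50, against -1.33 for the probe set used. For Adamts4 the difference between the responses was 0.21 (95% interval -1.41 to 1.83), for Timp1 -0.13 (-1.65 to 1.38) and for Adamts9 -0.36 (-1.45 to 0.72), and each of these intervals takes in a 2-fold difference in at least 1 direction.

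On Ex6DEL 0 h replicate 1, 12 of the 34 members that were not flat (35.3%) lay at least 2-fold above both other arrays of the group, against 13.8% of the 11616 genes that were not flat. Adamts5 exceeded the next array by 3.27, Mmp2 by 2.16, Adamtsl2 by 2.09, Adam23 by 1.91, Adamts12 by 1.71, Timp2 by 1.67 and Adam10 by 1.63, and Timp3, Adam9, Adam17, Adamts6 and Adam33 by 1.18 to 1.45. All 11 measured theca and stroma markers were higher there than on the other arrays of the group, among them Cyp17a1 at 15.14 against 9.44 and 10.40 and Dcn at 13.94 against 10.13 and 8.80, and none of the 11 was flat. Of the 10 granulosa markers 7 were also higher there, with a mean of 14.28 against 13.67 and 13.31, and so were 7 of 12 oocyte markers, with a mean of 7.74 against 7.19 and 6.89 and Zp3, a zona pellucida gene, at 12.62 against 9.82 and 9.46. The part of these cells or of this array in the values of the members was not tested. In Ex6DEL 0 h replicate 3, 5 members lay at least 2-fold above both other arrays, namely Adamts1, Adamts20, Adamts4, Adam8 and Mmp16, which are 14.7% of the members that were not flat, against 2.96% of all genes that were not flat.

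**Figure D5:**
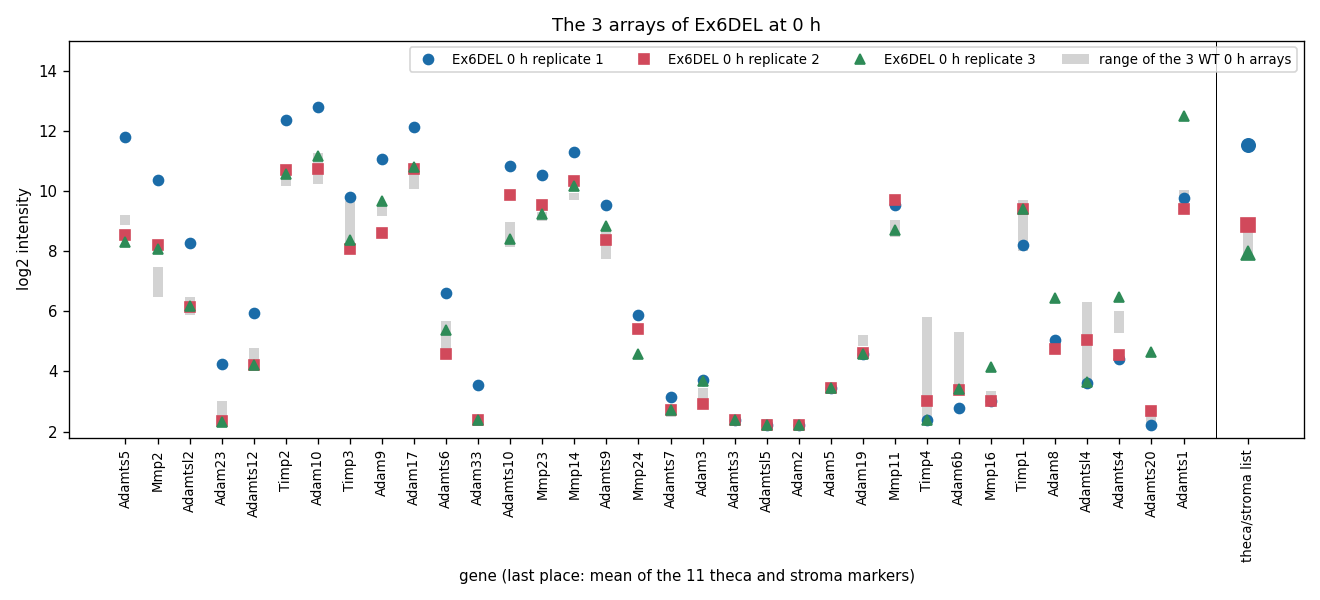
Log2 intensity (vertical axis) of the 34 members that were not flat on the 3 arrays of Ex6DEL at 0 h, ordered by how far replicate 1 exceeds the other arrays (horizontal axis), with the range of the WT 0 h arrays in grey and the mean of the theca and stroma markers at the right. Replicate 1 stands above its group from Adamts5 to Adam33, as the marker mean does at 11.54, and replicate 3 stands above for Adamts1 and Adamts4.

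Genes that activate, restrain or feed these proteases were examined as 5 lists in the mean of genotypes, where 3.1% of all genes rose and 6.62% fell. Of 19 convertases, plasminogen activators and cathepsins, 3 rose and 1 fell, and the median change was 0.05 against -0.01 over all genes. Pcsk5, a proprotein convertase that can activate ADAMTS proenzymes, rose by 3.60 (adjusted p = 0.0023), Plau, the urokinase plasminogen activator, by 4.37 (adjusted p = 0.00396) and Tll1, a tolloid-like procollagen protease, by 3.64 (adjusted p = 0.0213). Ctsh, a lysosomal cathepsin, changed by -1.26 (adjusted p = 0.0336). Of 20 measured inhibitors and cofactors 2 rose, with a median of 0.00. Rhbdf1, the iRhom1 cofactor of ADAM17, rose by 1.54 (adjusted p = 0.00226) and Serpinb2, an inhibitor of plasminogen activators, by 2.88 (adjusted p = 0.0391), while the second iRhom, Rhbdf2, changed by 2.40 (adjusted p = 0.0846).

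The next lists stand against the same shares over all genes, 3.1% up and 6.62% down, and a median change of -0.01. Of 25 genes of the proteoglycan and hyaluronan matrix 6 rose, none fell, and the median was 0.00. Vcan encodes versican, a proteoglycan cut by ADAMTS proteases. In WT cells it read 9.90, 12.28 and 12.72 at 0 h and 15.93, 15.20 and 14.79 at 4 h. In Ex6DEL cells it read 12.60, 11.99 and 13.86 at 0 h and 15.73, 14.61 and 15.09 at 4 h. It rose by 2.998 (adjusted p = 0.0139), with no overlap between 0 h and 4 h. The hyaluronan synthases Has2 and Has1 rose by 4.03 (adjusted p = 0.0081) and 3.93 (adjusted p = 0.012), the matrix organisers Ptx3 and Tnfaip6 by 6.95 (adjusted p = 0.00563) and 7.69 (adjusted p = 0.0142), and Sdc1 by 1.89 (adjusted p = 0.0159). Of 27 measured substrates shed by ADAM10 and ADAM17, 4 rose and 1 fell, with a median of 0.26. The growth factors Btc and Epgn rose by 10.06 (adjusted p = 0.00584) and 6.53 (adjusted p = 0.00943), the Notch ligand Jag1 by 3.24 (adjusted p = 0.00571) and the chemokine Cx3cl1 by 1.23 (adjusted p = 0.0267), the receptor Tnfrsf1b changed by -1.60 (adjusted p = 0.0259), and the growth factor Ereg was not called at 7.35 (adjusted p = 0.052). Of 19 measured ovulatory transcription factors 2 rose, with a median of 0.84: Pgr by 8.94 (adjusted p = 0.00516) and Runx1 by 6.62 (adjusted p = 0.0034).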

How the data were processed

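The authors deposited log2 intensities per probe set, and GCRMA, a method that subtracts background, equalises the arrays and combines a set's probes, is named in the submitters' processing notes (version and probe annotation not given in the sources used here). The table held 45101 probe sets on 12 arrays, of which 34958 had exactly 1 gene symbol in the platform annotation. Another 932 had several symbols and 9211 were not listed, and both stayed outside the tests; 5 of those with several symbols name a member. Array medians lay between 2.75 and 2.91. The number of arrays limits the precision.

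From these values limma 3.58.1 in R 4.3.3 was fitted (lmFit and eBayes, without trend, not robust) to 4 groups of 3 arrays, with 8 residual degrees of freedom, for 6 contrasts, two-sided. Promoter letters were searched in Python 3.11.15. On simulated data made like the mean contrast over 18194 genes, 200 genes drawn from those above the median level were changed by 3 (log2). Of these 91.5% were recovered, and 0.0611% of the others were called. Noise was drawn independently for each array, with no array standing apart. The recovered share does not cover genes below the median level.

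Values on all arrays are given for called members, the 4 TIMP genes, the 10 members with the highest mean and members whose arrays did not overlap in both genotypes with at least a 2-fold mean change; up to 6 genes of each pathway list with the smallest p may be named. The labels state no pairing. Deviations of same-numbered arrays of Ex6DEL 0 h and 4 h correlated at 0.14, 0.37 and 0.22, so the blocked value stands beside Ex6DEL calls that it changes; in WT they correlated at 0.08, 0.21 and 0.0047 and were not taken as pairs. The members, classes, lists and tests were chosen with earlier results of these data known. The alternatives were other normalizations, filters, probe sets, variance models, thresholds, the replicate number as a block and arrays left out. The lists of oocyte, endothelium, red blood cell and ovarian surface epithelium markers had 0 members called after hCG, as had those of theca and stroma and of leukocytes, and of the 10 granulosa markers 4 fell.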

Additional observations from a re-analysis of the deposited data

How the results depend on the processing

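Over 38 results of single members, 919 alternative values were computed: 784 kept direction and side of the threshold, 87 lost the threshold, 28 gained it and 20 changed sign. At an adjusted p under 0.01 the called members were 3 in the mean of genotypes and 0 in either genotype alone. Fitting only the groups compared gave 0 in WT and 0 in Ex6DEL. Array weights gave 5 in WT, with WT 0 h replicate 2 weighted at 9.09 and the other arrays at 0.28 to 1.36. The WT 0 h level in that fit thus rested mostly on a single array. In Ex6DEL a shift of arrays to a common median gave 5 and genes above the median level only gave 8. Leaving out Ex6DEL 0 h replicate 3 together with WT 0 h replicate 1 gave 5 in Ex6DEL. Leaving out single arrays gave 3 to 9 in the mean, 0 to 4 in WT and 0 to 8 in Ex6DEL. Without both Ex6DEL 0 h replicates 1 and 3, a fit chosen after the data were seen in which the lone array is assumed to vary like the other groups, 1 member was called at 0 h between genotypes and 1 in the interaction. The causes were not tested.

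The sign of the mean change turned for Adam10 (0.11 as mean of probe sets, 0.9998 for another probe set), Adam17 (0.27, 0.72 and 0.55 likewise) and Timp3 (-0.13 for another probe set, -0.15 to 0.33 without single arrays). Mmp14 in WT turned to -0.22 with quantile normalization, -0.30 as mean of probe sets, -0.76 and -0.15 for other probe sets, and ran from -0.032 to 0.10 without single arrays; in Ex6DEL another probe set gave 0.022. Flat probe sets were left out of these alternatives. With the replicate number as a block, 6 members were called in the mean, 2 in WT, where Timp1 was not (adjusted p = 0.0646), 2 in Ex6DEL and 0 between genotypes. Deviations of same-numbered arrays correlated at -0.33 to 0.69 over 18 pairs (median 0.19, 11 over 0.1), against a median of -0.06 and 6 of 36 over 0.1 for different numbers.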

Other observations

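Adamtsl4, an ADAMTS-like gene without a protease domain, was highest on replicate 2 in all 4 groups, at 6.30 and 5.37 in WT and 5.04 and 6.13 in Ex6DEL cells at 0 h and 4 h. The other arrays lay between 3.62 and 3.64 apart from 5.33 on WT 0 h replicate 1. It was the only 1 of 34 members that were not flat with such a pattern for any replicate number. Over all 11616 genes that were not flat, 4.18% were highest on replicate 2 in every group, 2.73% on replicate 1 and 0.585% on replicate 3.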
